A study of Homo sapiens with 4 samples.

Results

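Matrix metalloproteinases, their inhibitors and the urokinase system were followed on 4 Affymetrix 1-colour arrays through 10 genes: MMP2, MMP7, MMP9, MMP14, MMP15, TIMP1, TIMP2, TIMP3, PLAU and PLAUR. The members are all probe sets (groups of short array probes that report 1 transcript region) whose platform annotation gives 1 of these symbols and no other, 24 of the 41091 single-gene probe sets and 10 of 19775 genes. The series has 4 groups with 1 array each: A549 CHST11, A549 empty vector, NCI-H358 CHST11 and NCI-H358 empty vector. A549 and NCI-H358 are human lung carcinoma cell lines obtained from ATCC. In every group the cells were stably transduced and had gone through antibiotic selection, the empty vector cells included. CHST11 is a Golgi sulfotransferase of chondroitin chains. Whether each transduced population was a clone or a pool, and which promoter drove CHST11, is not stated in the labels. The question was how these protease genes stood with CHST11 against the empty vector in each line, and how the lines differed.

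Matrix metalloproteinases are zinc enzymes that cut collagens, other matrix proteins and cell surface proteins, and they are made as inactive proenzymes. The TIMPs are secreted proteins that bind and block the active enzymes. Urokinase (PLAU) is a serine protease that turns plasminogen into plasmin, and its receptor (PLAUR) holds it at the cell surface, where plasmin can in turn activate some proenzymes. In lung tumours these genes are studied for their part in matrix turnover and invasion.

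Values are the deposited signals on a linear scale. A gene counts as measured in a line where either array of that line reached a signal of 27, which is the 60th percentile over the whole table. Signals under 16.1, the 50th percentile, were raised to it before log2 was taken. Where a gene has several probe sets, the brightest on average represents it. Of the 24 probe sets, 16 were measured in NCI-H358, 16 in A549, and 7 in neither line. By the representing probe set, 9 of the 10 genes were measured in each line and 8 in both. MMP2 was under the filter in NCI-H358, and MMP14 in A549. Levels of different genes are not compared, because probe sets differ in brightness for reasons other than RNA amount.

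Array-wide facts were few. Median signals ran from 15.9 to 16.3, and the log2 signals of the vector pair correlated across probe sets with r = 0.996 in each line. With 1 array a group, differences between vectors within a line have no test. The SD of log2 ratios among probe sets of the same gene, 0.173 in NCI-H358 and 0.158 in A549, is the gauge of array scatter used here, and it does not cover the spread between cultures. CHST11 had signals of 1058 with its vector and 220.1 with the empty vector in NCI-H358, and of 343.5 and 129 in A549, at the representative probe set. The other 2 CHST11 probe sets had log2 ratios between -0.16 and 0.14. CDKN2A, known to be deleted in A549, had 804 and 668 in the NCI-H358 arrays and 24.0 and 18.4 in the A549 arrays (CHST11 array first). All 6 epithelial markers (EPCAM, CDH1, KRT7, KRT8, KRT18 and KRT19) were measured in both lines. Of these, EPCAM had 123 with CHST11 and 209.8 with the empty vector in A549 (log2 -0.77), and the other 5 were under 1.5-fold apart in both lines. Of the other cell types, the leukocyte markers had 1 of 6 measured in NCI-H358 and 2 in A549, the fibroblast markers 1 and 2 of 7, and the endothelial markers 1 and 1 of 5. Those measured were CORO1A in NCI-H358, CD3E, CD14 and THY1 in A549, and COL1A1 and PECAM1 in both lines. COL1A1 had 161 with CHST11 and 170 with the empty vector in NCI-H358, and 152.5 and 165 in A549. CORO1A had 83.6 and 83.5 in NCI-H358 in the same order. PTPRC, LYZ, COL3A1 and CDH5 were below the floor on all 4 arrays. The leukocyte marker CD14 had 38.4 with CHST11 and 24.2 with the empty vector in A549. The summed leukocyte signal was 137 with CHST11 and 141 with the empty vector in NCI-H358, and 99.0 and 83.3 in A549. The summed fibroblast signal was 242 and 257 in NCI-H358, and 250 and 256 in A549 in the same order, and the summed endothelial signal 78.7 and 81.7, and 74.3 and 73.8. A list of long mRNAs had a median log2 ratio of 0.13 in NCI-H358 and -0.55 in A549, and 7 genes of the mitochondrial genome had -0.14 and 0.73. At least 1.5-fold apart in A549 were 19 of the 39 long mRNAs measured, all lower with CHST11, and 6 of the 7 mitochondrial genes, all higher. Their part in the ratios below was not tested.

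**Figure D1:**
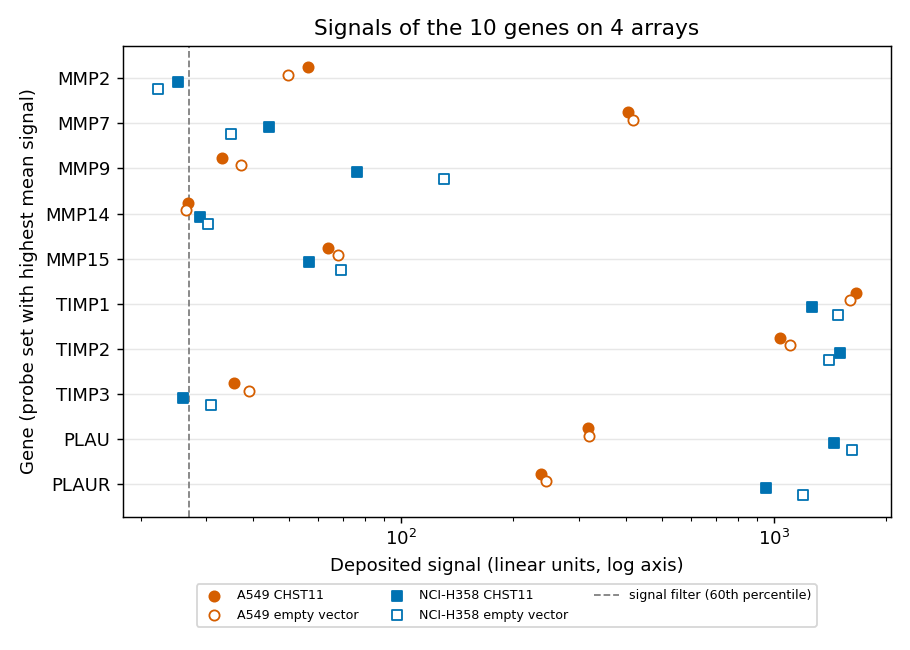
Deposited signal of the representing probe set of each gene (x axis, log scale) on the 4 arrays, filled symbols for CHST11 and open symbols for empty vector, circles for A549 and squares for NCI-H358, with the signal filter as a dashed line. PLAU, PLAUR and MMP9 lie further right on both NCI-H358 arrays than on both A549 arrays, and MMP7 and MMP2 further left.

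With CHST11 against the empty vector in NCI-H358, MMP9 was the 1 gene of the 9 measured that stood at least 1.5-fold apart, and it was lower. Over all 11395 genes measured in this line, 1.17% stood at least 1.5-fold apart in either direction and 0.272% were that much lower. No gene of the 10 reached 2-fold in either line, where 0.0527% of all measured genes did in NCI-H358 and 0.114% in A549. In A549, 0 of 9 measured genes were at least 1.5-fold apart, where 1.21% of 11448 genes were. No test stands behind these counts.

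MMP9, the secreted gelatinase B that cuts type IV collagen and gelatin, had a signal of 76.2 on the NCI-H358 CHST11 array and 130 on the NCI-H358 empty vector array. The log2 ratio was -0.77, which is 1.71-fold lower and several times the probe set scatter of the line. Only 0.0614% of the genes measured in NCI-H358 had a lower ratio. In A549 the signals were 33.1 with CHST11 and 37.1 with the empty vector, a log2 ratio of -0.17 that lay just beyond the scatter of 0.158. MMP9 was thus lower with CHST11 in both lines, and both NCI-H358 arrays stood above both A549 arrays. The array holds 1 single-gene probe set for MMP9, so no second probe set bears on the size of this difference. Whether the ratio differed between the lines was not tested.

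MMP7, matrilysin, a small secreted enzyme of epithelial cells, had 44.1 with CHST11 and 34.9 with the empty vector in NCI-H358, a log2 ratio of 0.34. In A549 it had 407 with CHST11 and 420 with the empty vector, a log2 ratio of -0.05. It was the only gene of the 9 measured in NCI-H358 that was higher by more than the scatter. MMP2, gelatinase A, had 25.2 with CHST11 and 22.2 with the empty vector in NCI-H358, both under the filter. In A549 it had 56.3 with CHST11 and 49.6 with the empty vector, a log2 ratio of 0.19 and the largest of the 9 ratios measured in that line. Its other 2 probe sets were not measured in either line.

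MMP14 and MMP15 are membrane-type enzymes, anchored at the cell surface, and MMP14 is known for activating the MMP2 proenzyme. MMP14 was close to the filter throughout, at 28.8 with CHST11 and 30.3 with the empty vector in NCI-H358 (log2 -0.08), and at 26.7 and 26.5 in A549. A second MMP14 probe set had log2 ratios of -0.35 in NCI-H358 and -0.20 in A549, so the size for MMP14 was not settled. The remaining 2 MMP14 probe sets were not measured. MMP15 had 56.6 with CHST11 and 68.8 with the empty vector in NCI-H358, a log2 ratio of -0.28. Its other probe set had -0.13 there, within the scatter. In A549 MMP15 had 63.8 with CHST11 and 67.9 with the empty vector, and both probe sets lay within the scatter.

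Among the inhibitors, TIMP1 had 1261 with CHST11 and 1487 with the empty vector in NCI-H358, a log2 ratio of -0.24. In A549 it had 1655 with CHST11 and 1597 with the empty vector, a ratio of 0.05. TIMP2, which also takes part in the activation of MMP2 by MMP14, had 1505 with CHST11 and 1402 with the empty vector in NCI-H358. Its 3 probe sets had ratios of 0.10, 0.12 and 0.04 there and of -0.09, 0.05 and 0.06 in A549, all within the scatter. TIMP3, a matrix-bound inhibitor that also blocks ADAM sheddases, had 25.9 with CHST11 and 31.0 with the empty vector in NCI-H358 (log2 -0.26), and 35.5 and 39.1 in A549 (log2 -0.14). TIMP3 rested on 1 measured probe set, since the other 3 were below the floor on all 4 arrays.

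PLAU had 1447 with CHST11 and 1623 with the empty vector in NCI-H358, and its 2 probe sets had log2 ratios of -0.16 and -0.12, within the scatter. In A549 it had 316 with CHST11 and 318 with the empty vector. PLAUR had 949 with CHST11 and 1194 with the empty vector in NCI-H358, a log2 ratio of -0.33. A second PLAUR probe set gave -0.32 and the third gave -0.11. In A549 PLAUR had 237 with CHST11 and 244 with the empty vector, and its 3 ratios lay between -0.05 and 0.00. The receptor's lower signal in NCI-H358 was therefore larger than the scatter on 2 of its 3 probe sets.

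**Figure D2:**
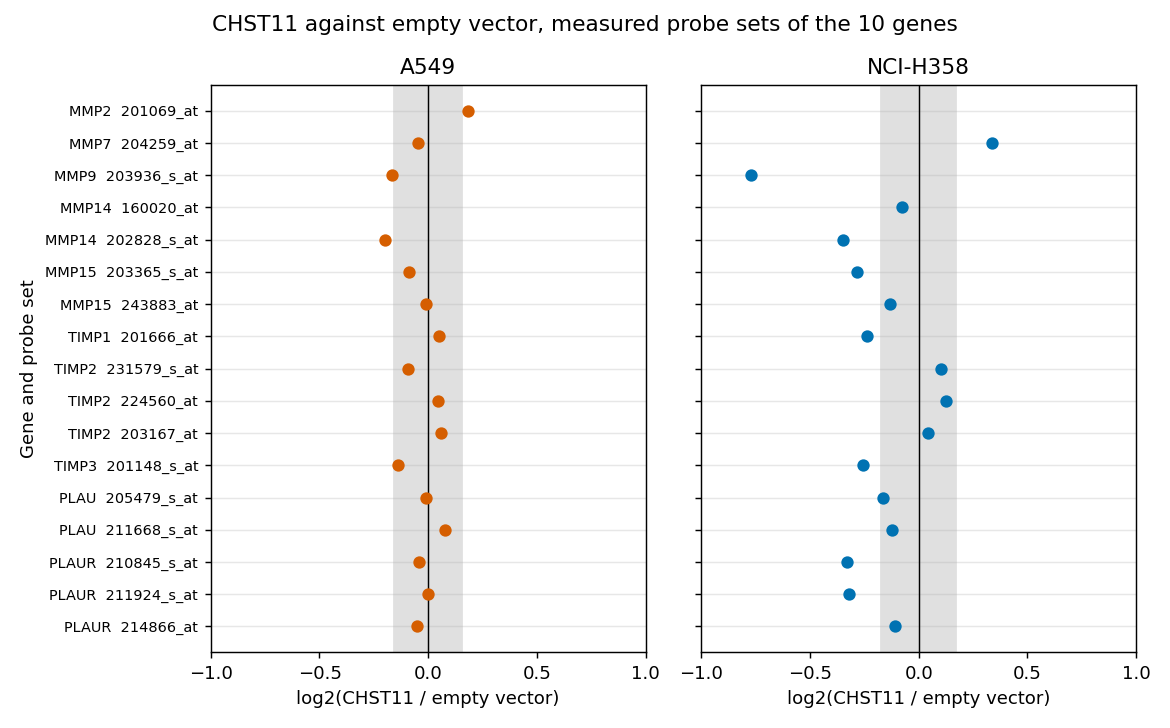
log2 ratio of CHST11 over empty vector (x axis) for each measured probe set of the 10 genes in A549 (left) and NCI-H358 (right). The grey band is 1 SD of the scatter among probe sets of a gene in that line. MMP9 lies at -0.77 in NCI-H358, the PLAUR probe sets at -0.33, -0.32 and -0.11, and MMP7 at 0.34.

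Read together, 5 of the 9 measured genes in NCI-H358 (MMP9, PLAUR, MMP15, TIMP3 and TIMP1) were lower with CHST11 by more than the probe set SD, 1 (MMP7) was higher by more than it and 3 were within it. Over all genes measured in that line, 12.8% were lower and 17.6% higher by more than this SD. The median log2 ratio of the 9 was -0.24, with 7 below 0, where all measured genes had a median of 0.00 and 49.3% below 0. In A549, 1 gene (MMP9) was lower and 1 (MMP2) higher by more than the SD and 7 were within it, where 12.7% of all genes were lower and 15.1% higher. The median there was -0.05, with 7 of 9 below 0, against 0.01 and 45.3% below 0 for all measured genes. With the median of a gene's probe sets in place of the brightest, 3 of 7 were below 0 in A549, with a median of 0.00, and 5 of 7 in NCI-H358, with a median of -0.21. These shares describe 1 pair of arrays in each line.

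**Figure D3:**
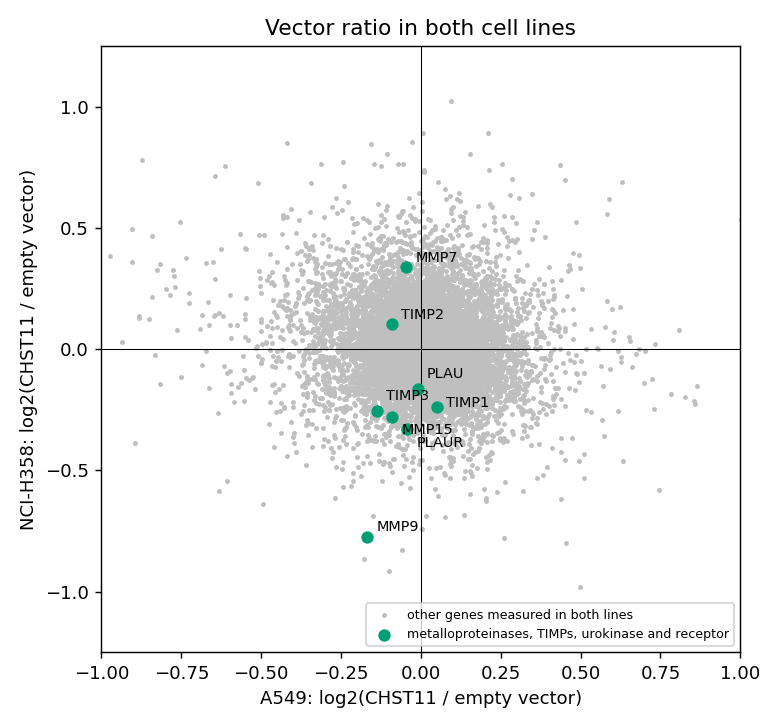
log2 ratio of CHST11 over empty vector in A549 (x axis) and in NCI-H358 (y axis) for 10564 other genes measured in both lines (grey; 6 lie outside the axes) and the 8 genes of the group measured in both (green). MMP9 lies at the lower edge of the cloud, and the other 7 lie inside it.

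A shared difference of the vector was fitted over both lines with limma, with cell line as a term. For none of the 10 genes did it pass an adjusted p of 0.05, and percent called was 0% of the 12271 genes tested, with 374 at an unadjusted p under 0.05 (from 224 with the 75th percentile filter to 1223 with no filter on low values over the alternatives tried). MMP9 had the largest fitted size among the 10, a log2 difference of -0.47 (SE 0.167, interval from -0.91 to -0.03), with a limma unadjusted p of 0.0412 and an adjusted p of 1. It was lower with CHST11 in 2 of 2 lines. Of all measured genes, 49.3% were below 0 in NCI-H358 and 45.3% in A549, and the share below 0 in both was not counted. The fitted differences of the 9 genes other than MMP9 lay between -0.20 (TIMP3) and 0.18 (MMP2), each with an interval that included 0. The fit had 1 residual degree of freedom a gene, from the difference between the lines in their ratio. Limma draws this error toward the spread over all fitted genes.

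Between NCI-H358 and A549 many genes passed the test. For this comparison the CHST11 and empty vector arrays of a line were its 2 arrays, and vector was a term in the limma fit. A gene's own error is thus the difference between the lines in their vector ratio. Limma draws it toward the spread over all fitted genes, with 3.535 prior degrees of freedom against 1 residual. The p-values rest on these spreads, which may be technical, and not on the spread between cultures of a line. Of the 10 genes 7 passed an adjusted p of 0.05, 4 higher and 3 lower in NCI-H358. This is near the background, since 64.5% of the 12271 genes tested passed. MMP2 and MMP14 entered the fit through 1 line alone, MMP2 through A549, where it was higher. The filter thus largely fixed the direction of MMP2. Of the 8 genes measured in both lines 6 passed, where 60.9% of all genes measured in both did. Of the 10 genes 5 passed with a fitted difference of at least 2-fold, where 24.4% of all genes did, and for 1 of the 5, MMP2, the size is known only as a bound under 2-fold. PLAU, PLAUR and MMP9 were higher in NCI-H358, and MMP7 and MMP2 lower.

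MMP7 had the largest difference among the 10. Its signals were 44.1 and 34.9 on the NCI-H358 arrays, and 407 and 420 on the A549 arrays, in the order CHST11, empty vector. The fitted log2 difference was -3.40 (SE 0.125, limma adjusted p = 9.1e-05), which is 10.5-fold lower in NCI-H358. Of all genes tested, 1.31% had a lower value. MMP2 had 25.2 and 22.2 on the NCI-H358 arrays, both under the filter, and 56.3 and 49.6 on the A549 arrays. It was at least 1.96-fold lower in NCI-H358, a bound that sets the NCI-H358 level at the filter. The limma adjusted p of 0.000565 belongs to the fitted log2 difference of -1.16 and not to this bound. MMP2 entered the fit through A549 alone, so the filter largely fixed its direction and the call is no support for it.

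MMP9 had 76.2 and 130 in NCI-H358 against 33.1 and 37.1 in A549, and was 2.84-fold higher in NCI-H358 (log2 1.51, SE 0.167, limma adjusted p = 0.0017). The difference was log2 1.20 between the CHST11 arrays and 1.81 between the empty vector arrays. The order of the 4 arrays for MMP9 was NCI-H358 empty vector, NCI-H358 CHST11, A549 empty vector and A549 CHST11, and the last 2 differed by little more than the scatter.

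PLAU had 1447 and 1623 in NCI-H358 against 316 and 318 in A549, which is 4.83-fold higher in NCI-H358 (log2 2.27, SE 0.094, limma adjusted p = 0.000117). Its second probe set had a log2 difference of 2.49. PLAUR had 949 and 1194 in NCI-H358 against 237 and 244 in A549, 4.42-fold higher (log2 2.15, SE 0.110, limma adjusted p = 0.000199). Its other probe sets had 2.10 and 1.21. Protease and receptor were thus both higher in NCI-H358 on each of their 5 probe sets, all read on the same arrays.

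Of the inhibitors, TIMP2 and TIMP3 passed the test and TIMP1 did not. TIMP2 was 1.36-fold higher in NCI-H358 (log2 0.44, SE 0.098, limma adjusted p = 0.0156). One of its probe sets had a log2 difference of 0.97, against 0.44 and 0.42 for the other 2, so the size was not settled. TIMP3 was 1.32-fold lower (log2 -0.40, SE 0.091, limma adjusted p = 0.0174), with 1 of its 2 NCI-H358 arrays under the filter. TIMP1 had a log2 difference of -0.25 (interval from -0.54 to 0.04, limma adjusted p = 0.11), and eBayes with a trend gave an adjusted p of 0.0366. MMP14 had 0.15 (interval from -0.09 to 0.39) and MMP15 -0.08 (interval from -0.34 to 0.18), and neither passed. The representing MMP14 probe set was under the filter on both A549 arrays. Another MMP14 probe set, measured in both lines, had -0.19 and the other MMP15 probe set 0.11, so neither sign was settled.

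**Figure D4:**
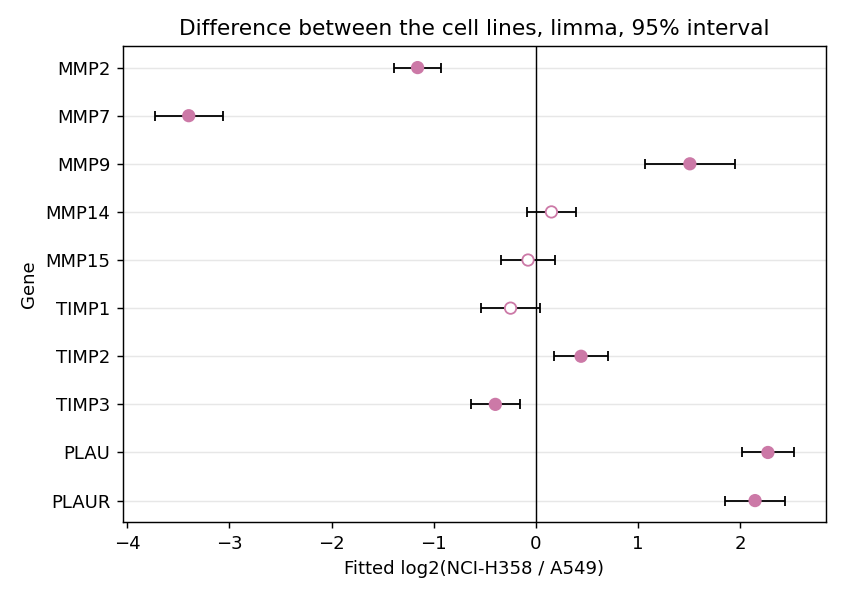
Fitted log2 difference between NCI-H358 and A549 (x axis) for each of the 10 genes, with the 95% interval from limma as a bar. Filled points passed an adjusted p of 0.05. MMP7 lies at -3.40, MMP2 at a fitted -1.16 whose size is known only as a bound, and MMP9, PLAUR and PLAU at 1.51, 2.15 and 2.27.

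The stretches before the start sites of 3 genes with large line differences are shown from RefSeq (GRCh38.p14), because AP-1, a dimer of FOS and JUN family proteins, is a known regulator of many of these genes. Of the 10 genes 7 matched the promoter table by symbol, PLAU with 2 starts, and each window is the 250 bases upstream of the start. Capitals mark TGANTCA, the AP-1 motif, which reads the same on both strands, and in PLAU they mark GGGCGG, the GC box, on either strand. No marked motif overlaps another.
MMP7, chr11:102530748-102530997, minus strand: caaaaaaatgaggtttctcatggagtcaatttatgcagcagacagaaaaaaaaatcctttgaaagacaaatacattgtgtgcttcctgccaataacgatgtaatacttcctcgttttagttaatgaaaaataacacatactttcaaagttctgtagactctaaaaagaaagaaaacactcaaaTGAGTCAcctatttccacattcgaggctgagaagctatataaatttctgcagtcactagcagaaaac
PLAUR, chr19:43670170-43670419, minus strand: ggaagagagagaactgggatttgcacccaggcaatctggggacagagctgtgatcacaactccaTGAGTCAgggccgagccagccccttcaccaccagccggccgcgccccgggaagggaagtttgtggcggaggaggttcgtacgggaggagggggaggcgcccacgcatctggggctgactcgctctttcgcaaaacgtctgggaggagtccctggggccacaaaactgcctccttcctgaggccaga
PLAU, second start, chr10:73910882-73911131, plus strand: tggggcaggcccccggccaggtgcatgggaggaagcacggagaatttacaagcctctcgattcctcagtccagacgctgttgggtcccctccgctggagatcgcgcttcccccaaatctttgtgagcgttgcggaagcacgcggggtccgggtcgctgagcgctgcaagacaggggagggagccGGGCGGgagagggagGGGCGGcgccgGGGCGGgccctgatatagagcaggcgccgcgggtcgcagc
TGANTCA stood once in the MMP7 window, with its first base 67 bases before the start, and once in the PLAUR window, 186 bases before it. None of the other 6 windows of these genes held it. Over all 35116 windows of the table, 6.57% held the motif. The GC box stood in 5 of the 8 windows of these genes and in 42.6% of all windows. The ETS motif AGGAAG, on either strand, stood in 4 of the 8 and in 28.7%. MMP7 and PLAUR, the 2 with the AP-1 letters, differed between the lines in opposite directions. A match is a description of the letters and no evidence of binding.

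Of the AP-1, ETS and NF-kB transcription factor list, 18 of 20 genes were measured in at least 1 line, 9 were higher and 4 lower in NCI-H358 by the limma fit (33.9% and 30.6% of all genes). FOS, 1 of the 4 lower, entered the fit through A549 alone, so the filter largely fixed its direction. FOSL1, an AP-1 subunit, had 937 and 1296 in NCI-H358 against 106 and 114 in A549, 10.02-fold higher. ETS1 was 5.56-fold, JUN 2.87-fold and JUNB 2.82-fold higher. Other ETS1 probe sets had log2 differences of 3.09 and 0.997, against 2.475 for the representing one, so the size for ETS1 was not settled. Other measured JUN probe sets had 1.224 and 1.216, against 1.521. With CHST11, 0 of the genes of this list were at least 1.5-fold apart in either line. FOSL1 had a log2 ratio of -0.47 in NCI-H358 and -0.12 in A549, from 1 probe set. The list medians were -0.04 in NCI-H358 and 0.06 in A549.

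Most other matrix metalloproteinases were not measured. Of 17 on the array with a single-gene probe set, 7 were measured in at least 1 line and 9 were below the floor on all 4 arrays, among them MMP1, MMP3, MMP10 and MMP12. MMP13, collagenase 3, had 56.4 with CHST11 and 32.9 with the empty vector in NCI-H358, a log2 ratio of 0.78, while both A549 arrays were below the floor. MMP24, a membrane-type enzyme, had 17.9 with CHST11 and 27.1 with the empty vector in NCI-H358 (log2 -0.60), the second value just at the filter. These were the 2 genes of the list at least 1.5-fold apart, 1 higher and 1 lower, and each rested on 1 measured probe set. So in NCI-H358 the collagenase MMP13 and the gelatinase MMP9 stood in opposite directions with CHST11. Between the lines, limma called 2 higher and 2 lower in NCI-H358 (33.9% and 30.6% of all genes). MMP13 and MMP16, the 2 called higher, entered the fit through NCI-H358 alone, so the filter largely fixed their direction. MMP24 was a fitted 7.27-fold lower, with 1 of its 2 NCI-H358 arrays under the filter, MMP19 1.24-fold lower, MMP16 at least 2.03-fold higher and MMP13 at least 1.59-fold higher. MMP16 and MMP19 each rested on 1 measured probe set, with their others below the floor on all 4 arrays.

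Activators and other inhibitors of the metalloproteinases numbered 8, of which 5 were measured in at least 1 line. None was at least 1.5-fold apart between vectors in either line. TIMP4, a further TIMP, had 143 and 142 in A549 and was below the floor in NCI-H358, where it was at least 5.29-fold lower. BSG, a surface glycoprotein known to induce metalloproteinases, was 1.87-fold lower in NCI-H358. FURIN, a proprotein convertase that can activate the MMP14 proenzyme, was 1.65-fold higher, and the convertase PCSK7 1.70-fold higher. In all, 2 of these 5 were called higher and 3 lower by limma (33.9% and 30.6% of all genes). TIMP4 entered the fit through A549 alone, so the filter largely fixed its direction.

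Of the other plasminogen system genes, 9 of 14 were measured in at least 1 line. PLAT, the tissue-type plasminogen activator, had 216 and 220 in NCI-H358 and was below the floor in A549, at least 8.07-fold higher in NCI-H358. ST14, matriptase, a membrane serine protease that can activate the urokinase proenzyme, was at least 9.56-fold higher. SERPINE2, a serpin that inhibits urokinase, was 1.31-fold higher. MRC2, a collagen uptake receptor that associates with PLAUR, was 3.54-fold lower at its representing probe set (log2 -1.825). The other MRC2 probe set, measured in both lines, had a log2 difference of -0.15, so the size for MRC2 was not settled. Limma called 4 of the 9 higher and 2 lower in NCI-H358 (33.9% and 30.6% of all genes). PLAT and ST14 entered the fit through NCI-H358 alone, so the filter largely fixed their direction. With CHST11, only MRC2 was at least 1.5-fold apart among the genes of this list. It had 434 with CHST11 and 283 with the empty vector in A549 (log2 0.62) and 90.4 and 108 in NCI-H358 (log2 -0.26). Its other probe set had -0.01 in A549, so the difference there rested on 1 of 2 probe sets.

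**Figure D5:**
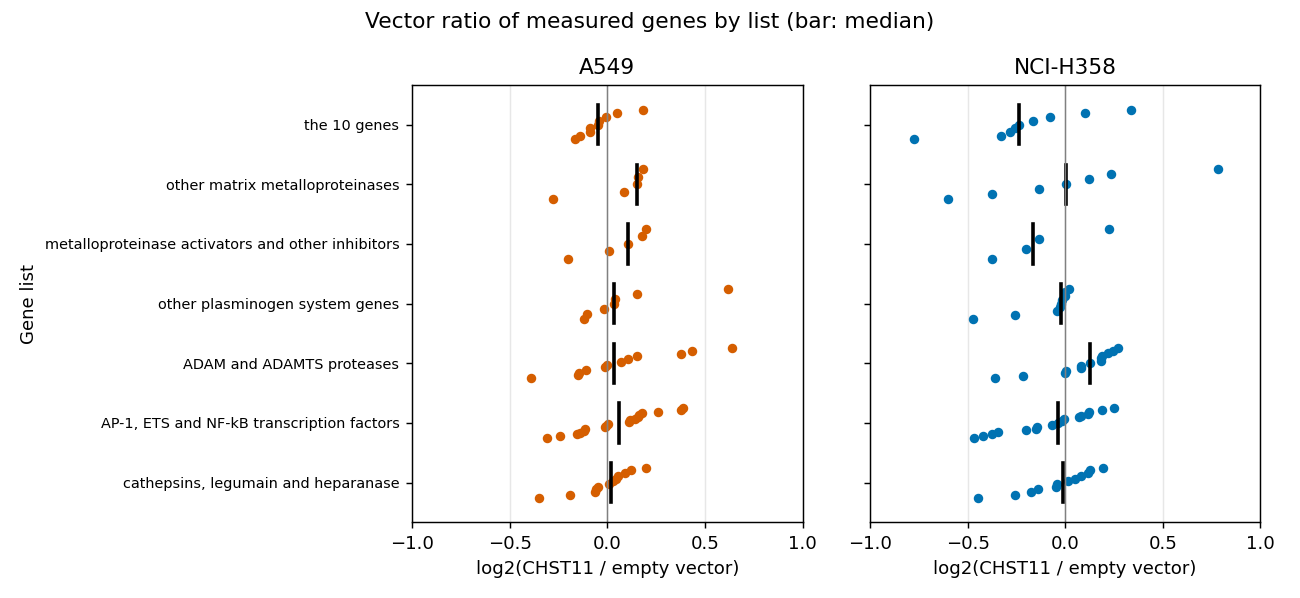
log2 ratio of CHST11 over empty vector (x axis) for the measured genes among the 10 and in 6 lists of proteases, their regulators and transcription factors, in A549 (left) and NCI-H358 (right), with a bar at each list's median. The 10 genes have a median of -0.24 in NCI-H358, and the largest single values among the genes drawn there are MMP9 at -0.77 and MMP13 at 0.78.

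For the 5 genes whose log2 signals ranged over at least 1, the genes with the most similar pattern over the 4 arrays were found. The measure was the largest of the 4 differences between the centred log2 signals, and a match over 4 arrays from 2 lines is easily met. For MMP9 the nearest were STMN3, SCIRT and MACC1, with largest differences of 0.17, 0.18 and 0.19. For PLAUR they were CNKSR1, IFIT1 and HLA-G (0.05, 0.08 and 0.08), and for PLAU they were SLC2A10, PSMB8-AS1 and LOC100996740 (0.02, 0.03 and 0.03). For MMP7 they were KAT2B, TGFBR3 and IGFBP7 (0.06, 0.09 and 0.14), and for MMP2 they were ZNF584, UBL3 and AOPEP (0.02, 0.02 and 0.03). MACC1, SLC2A10 and PSMB8-AS1 were below the floor on both A549 arrays, so the floor sets their A549 values and their place among the nearest. CNKSR1 and TGFBR3 were below it on 1 array each. STMN3, the nearest to MMP9, had 71.7 with CHST11 and 99.0 with the empty vector in NCI-H358.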

How the data were processed

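RNA of 4 cultures was measured on 1-colour arrays, 1 array in each group, grouped by the sample labels. The authors made the deposited intensities, which are linear, with MAS5 per the submitters' processing notes. Neither its version nor its scaling target is stated there, and no detection calls were used. Median signals of the arrays lie close together, and the sources used here do not say whether a further normalization followed MAS5. The number of arrays limits the precision. From these, log2 values floored at the 50th percentile were computed, and genes under the 60th percentile on all arrays of a line were not counted in it. Control probe sets (62) were dropped. Of the rest, 41091 carried 1 symbol in the platform annotation, 1801 carried more and 11721 had no symbol, and 41037 of the first matched a current RefSeq gene. Within a line, counts use a size of 1.5-fold or 2-fold with no p-value. Shared and line differences were fitted with limma 3.58.1 (lmFit and eBayes, cell line and vector as terms, Benjamini-Hochberg adjusted p, R 4.3.3), and the fit was tested on simulated data. Bounds of dim genes between lines use the filter as the lowest level. Genes measured in 1 line alone entered the fit through that line, so the filter largely fixed the direction of their line difference. Tables and plots used Python 3.11.15, pandas 2.3.3 and matplotlib 3.10.9.

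The members and gene lists were chosen with earlier results of these data known. Named genes are the members, CHST11, CDKN2A as a label check, list genes at least 1.5-fold apart between vectors or, at most 4 a list, with the largest called line difference, and the 3 nearest in pattern to each variable member. Long mRNA and mitochondrial genes, and markers by line difference, are given as counts, medians or sums instead. Some markers, measured or at the floor, and list genes floored or not measured in both lines were named after their values were seen. So was CTSS, by its vector ratio. Alternatives were quantile, median and cyclic loess normalization, other floors and filters, the median of probe sets, eBayes with a trend, a fit over all probe sets, and the line difference in each vector alone.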

Additional observations from a re-analysis of the deposited data

How the results depend on the processing

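MMP9 was lower with CHST11 in NCI-H358 at each of 7 alternative settings, with log2 ratios from -0.79 to -0.74, and it was the 1 gene of the 10 past 1.5-fold in each. No gene of the 10 passed that size in A549, or the shared limma test, in any setting. With no filter on low values, which adds genes floored on every array to the fit, limma called 1 of the 10 between the lines (MMP2), where adjusted p was 0.0698 for MMP7, 0.0523 for PLAU, 0.077 for PLAUR and 0.165 for MMP9. The log2 differences did not move by this. The 75th percentile filter and the median of probe sets, under which MMP2 and TIMP3 were no longer tested, each gave 5 called, and the trend gave 8. The fitted line differences of MMP7, PLAU, PLAUR, MMP9 and MMP2 kept their sign in every setting that tested them. Signs turned for values that had not been called: TIMP2 in the shared fit (-0.021 by quantile and -0.013 by cyclic loess normalization), MMP15 between the lines (0.018 by the median of probe sets and 0.020 on the empty vector arrays), and in A549 the vector ratios of TIMP2, PLAU and PLAUR by the median of probe sets (0.047, 0.035 and 0.001) and of PLAU by median centring (0.012). Over all genes, the 75th percentile filter left 44 genes at least 1.5-fold apart in NCI-H358 and 57 in A549, and the median of probe sets 84 and 75, against 133 and 138. Unadjusted p under 0.05 in the shared fit was met by 1223 genes with no filter, 648 probe sets and 224 genes with the 75th percentile filter, against 374. Line calls over all genes were 1905 with no filter and 13487 over probe sets, against 7909. The shared fit pairs the CHST11 and empty vector arrays of a line through its cell line term, and the labels carry no replicate numbers for any other pairing. Signals of MMP14, TIMP3 and MMP2 in NCI-H358 lay near the filter, which limits what their ratios can show.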

Other observations

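Other protease lists were not part of the comparisons above and are described here. ADAM and ADAMTS proteases had 14 of 19 genes measured in at least 1 line, and limma called 7 higher and 2 lower in NCI-H358, where 33.9% and 30.6% of all genes were. ADAM8, a surface sheddase, had 166 and 212 in NCI-H358 against 29.2 and 32.2 in A549, 6.11-fold higher, and ADAMTS15 was 3.25-fold higher. ADAM28 was at least 2.16-fold higher, while ADAMTS9 was at least 2.11-fold lower. ADAM28 and ADAMTS1, also called higher, entered the fit through NCI-H358 alone and ADAMTS9 through A549 alone, so the filter largely fixed their direction. ADAM8, ADAM28, ADAMTS9 and ADAMTS15 each rested on 1 measured probe set. ADAMTS9, a protease that cuts proteoglycans, was also the 1 gene of this list at least 1.5-fold apart between vectors, at 71.0 with CHST11 and 45.6 with the empty vector in A549 (log2 0.64). In NCI-H358, 2 of the 13 measured genes of the list had a ratio below 0, where 49.3% of all genes did, with a list median of 0.13. In A549, 6 of 12 were below 0, where 45.3% of all genes were, with a median of 0.03.

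All 12 cathepsin, legumain and heparanase genes were measured in both lines. Of these, 5 were called higher and 5 lower in NCI-H358 by limma (33.9% and 30.6% of all genes). HPSE, heparanase, which cuts heparan sulfate chains, had 303 and 300 in NCI-H358 against 36.3 and 46.2 in A549, 7.36-fold higher. CTSC was 3.22-fold and CTSS 3.09-fold higher, and CTSZ 2.10-fold lower. A second CTSS probe set measured in both lines had a log2 difference of 0.41, and another measured in NCI-H358 alone had 1.61. The representing one had 1.63, so the size for CTSS was not settled. None of the 12 was at least 1.5-fold apart between vectors. CTSS, a cathepsin known from antigen presentation, came nearest with 254 with CHST11 and 346 with the empty vector in NCI-H358 (log2 -0.45), and its other measured probe sets there had -0.34 and -0.01.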
